A study of Homo sapiens with 12 samples.

Results

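Polyamine synthesis and breakdown were described in LNCaP cells, a human prostate cancer line that responds to androgen, through 10 genes chosen by name: ODC1, AMD1, SRM, SMS, SAT1, SMOX, PAOX, OAZ1, OAZ2 and AZIN1. They were chosen with earlier results of these data known, so counts of members set beside the shares of all genes are descriptions only. All 10 were among the 34643 genes listed, and all 10 were among the 15419 genes kept by the filter on low counts. The cells carried a scramble shRNA (shScramble) or an shRNA against TMEFF2 (shTMEFF2), expressed from a lentiviral vector with puromycin selection, and which of the TMEFF2 shRNAs was used for the sequenced cells is not given in the sources used here. After 24 h in hormone-depleted medium, cells of each line received 10 nM dihydrotestosterone (DHT, the androgen receptor ligand) or ethanol as vehicle for 24 h, which gave the groups shScramble DHT-, shScramble DHT+, shTMEFF2 DHT- and shTMEFF2 DHT+. Each group held 3 libraries from separate treatments and extractions, drawn from repeated transductions, so p-values measure the spread between these repeats.

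The polyamines putrescine, spermidine and spermine are small, positively charged molecules that bind nucleic acids and are needed for growth, and the prostate is known for making and secreting them in large amounts. Ornithine decarboxylase (ODC1) makes putrescine, S-adenosylmethionine decarboxylase (AMD1) makes the aminopropyl donor, and spermidine synthase (SRM) and spermine synthase (SMS) add aminopropyl groups in turn. Spermidine/spermine acetyltransferase (SAT1) starts breakdown and export, the oxidases SMOX and PAOX convert the larger polyamines back, antizymes (OAZ1, OAZ2) bring ODC1 protein to the proteasome, and the antizyme inhibitor AZIN1 binds antizyme in place of ODC1.

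On GRCh38, in the GENCODE annotation, SMS (chrX:21940709-21994837) and SAT1 (chrX:23783173-23786210) both lie on the plus strand of chromosome X, 1.79 Mb apart. ODC1 lies at chr2:10439968-10448327 on the minus strand, with the small nucleolar RNA gene SNORA80B inside it. SRM is at chr1:11054584-11060020 (minus), AMD1 at chr6:110874770-110898879 (plus), SMOX at chr20:4120980-4187747 (plus) and PAOX at chr10:133379261-133391694 (plus). OAZ1 is at chr19:2269509-2273490 (plus) and OAZ2 at chr15:64687573-64703281 (minus). OAZ1, OAZ2 and AZIN1 overlap annotated genes on the opposite strand, and strand-specific counting is not stated, so reads from such partners may not be separated from theirs. SAT1, PAOX, OAZ1 and AZIN1 also overlap an annotated gene on their own strand, whose reads may be shared with theirs whatever the strand setting. Of the listed pseudogenes of ODC1, AMD1 and SRM, none exceeded 21 counts in a library.

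The 250 bases before the start site are shown for the 3 members whose DHT response differed between the lines (SMS, SAT1 and ODC1) and for SRM, the only one of the members in the table with a motif searched for. The sequences are from RefSeq on GRCh38.p14, 5′ to 3′ on the strand of the gene, in lower case, and capitals mark a match to the E-box CACGTG or to the androgen response element hexamer AGAACA, each searched on both strands.
SMS, chrX:21940459-21940708, plus: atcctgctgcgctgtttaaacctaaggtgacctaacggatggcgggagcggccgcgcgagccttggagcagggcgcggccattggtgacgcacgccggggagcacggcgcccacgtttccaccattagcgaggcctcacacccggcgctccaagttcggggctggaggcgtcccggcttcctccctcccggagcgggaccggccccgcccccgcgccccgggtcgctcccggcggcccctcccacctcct
SAT1, chrX:23782923-23783172, plus: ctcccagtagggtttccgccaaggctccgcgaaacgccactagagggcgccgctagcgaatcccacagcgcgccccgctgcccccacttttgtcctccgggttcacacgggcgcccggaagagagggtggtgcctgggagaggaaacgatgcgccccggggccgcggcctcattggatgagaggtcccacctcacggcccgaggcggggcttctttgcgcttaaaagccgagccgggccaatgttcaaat
ODC1, chr2:10448328-10448577, minus: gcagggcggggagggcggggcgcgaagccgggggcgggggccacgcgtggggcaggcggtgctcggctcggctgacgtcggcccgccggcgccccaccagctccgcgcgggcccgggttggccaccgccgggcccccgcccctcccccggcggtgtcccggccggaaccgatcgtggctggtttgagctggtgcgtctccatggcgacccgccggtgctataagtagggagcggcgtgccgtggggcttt
SRM, chr1:11060019-11060268, minus: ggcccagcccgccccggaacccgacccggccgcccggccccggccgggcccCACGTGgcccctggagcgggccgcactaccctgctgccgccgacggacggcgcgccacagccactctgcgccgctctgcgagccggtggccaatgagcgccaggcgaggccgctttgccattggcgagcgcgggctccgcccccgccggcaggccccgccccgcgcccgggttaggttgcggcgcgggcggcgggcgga

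Of the 10 members, 7 had an entry in the reference promoter table; SMOX, PAOX and AZIN1 had none. An E-box was present in 1 of these 7, SRM, where it began 199 bases before the start, against 6.34% of all 35116 promoter entries. The hexamer was present in 0 of the 7, against 12.4% of all entries, and the absence of these letters concerns only this window. The windows of the 4 genes shown were GC-rich, with 66.4% GC for SAT1, 72.8% for SMS, 78.8% for ODC1 and 82.0% for SRM, against a median of 58% over all entries.

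Library totals were 19450866 to 22612046 estimated counts. Levels are given as TMM-normalized CPM, which corrects for library size and for differences in RNA composition between libraries. TMEFF2, the target of the shRNA, was at 77.8, 73.8 and 103 CPM in the shScramble DHT- libraries and at 68.7, 39.4 and 81.7 CPM in the shTMEFF2 DHT- libraries, and at 173, 117 and 169 CPM against 142, 90.1 and 115 CPM with DHT. The lower mean in shTMEFF2 did not pass the test without DHT (log2 fold change -0.43, SE 0.25, edgeR adjusted p = 0.50) or with DHT (-0.41, SE 0.25, adjusted p = 0.30), and the libraries of the lines overlapped at both DHT levels. Each shTMEFF2 library was nonetheless below the shScramble library of the same number, a pairing that this test did not use. The authors report silencing of TMEFF2 in LNCaP cells by Western blot, which measures protein. KLK3, which encodes prostate-specific antigen and is a known androgen target, rose with DHT in shScramble (log2 fold change 1.96, SE 0.22, edgeR adjusted p = 3.9e-05) and in shTMEFF2 (2.45, SE 0.23, adjusted p = 0.00011). Its mean level was 1925 CPM in shScramble DHT-, 7495 in shScramble DHT+, 356 in shTMEFF2 DHT- and 1949 in shTMEFF2 DHT+. KLK3 was thus lower in shTMEFF2 without DHT (log2 -2.43, SE 0.23, edgeR adjusted p = 0.00028) and with DHT (-1.94, SE 0.22, adjusted p = 8.3e-05).

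All 7 luminal prostate markers were detected, and their summed level ran from 6420 to 6690 CPM in shScramble DHT-, 12300 to 13000 in shScramble DHT+, 4250 to 4730 in shTMEFF2 DHT- and 5050 to 6090 in shTMEFF2 DHT+. The 3 basal markers summed to at most 1.77 CPM in any library and KRT5 was at 0 counts in all of them. Of the immune markers, CD3E stayed at 3 counts or fewer, while PTPRC and CD68 had at least 63 and 62 counts in every library. The stromal markers summed to 12.6 to 34.4 CPM and the immune markers to 7.86 to 12.6 CPM over the libraries. The 5 proliferation markers summed to 534 to 650 CPM in shScramble DHT-, 649 to 836 in shScramble DHT+, 491 to 695 in shTMEFF2 DHT- and 895 to 1150 in shTMEFF2 DHT+. These sums moved with the groups compared below, and their part in the results was not tested. In bulk RNA, a change in the share of cells that express a gene and a change in RNA per cell cannot be told apart.

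Levels between genes were compared per length, as CPM per kb of the median annotated coding transcript. In shScramble DHT- the order was OAZ1 (640 ± 50 CPM per kb, SD, n = 3), AMD1 (433 ± 23), SRM (183 ± 16), ODC1 (178 ± 9.9), SMS (116 ± 2.2), SAT1 (103 ± 5.1), OAZ2 (99.4 ± 3.8), AZIN1 (65.4 ± 3.4), PAOX (3.71 ± 0.13) and SMOX (2.6 ± 0.31). The ranges of the neighbours SRM and ODC1 overlapped, as did those of SAT1 and OAZ2. The places of SRM, SMS and SAT1 depended on the length used. With the longest transcript SRM was at 77.9 CPM per kb, below ODC1 (136), SAT1 (93.9) and SMS (80.3). In shScramble DHT+ the level of SMS reached 390 ± 29 CPM per kb and its range overlapped that of ODC1 (380 ± 57). AMD1 in that group was at 526 ± 26 CPM per kb. With the longest transcript it was at 259, below ODC1 (290), SAT1 (282) and SMS (269). In shTMEFF2 DHT+ SMS was at 168 ± 20 and ODC1 at 218 ± 6.3 CPM per kb, without overlap. The oxidases SMOX and PAOX, which convert larger polyamines back, stayed the lowest of the 10 in every group.

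**Figure D1:**
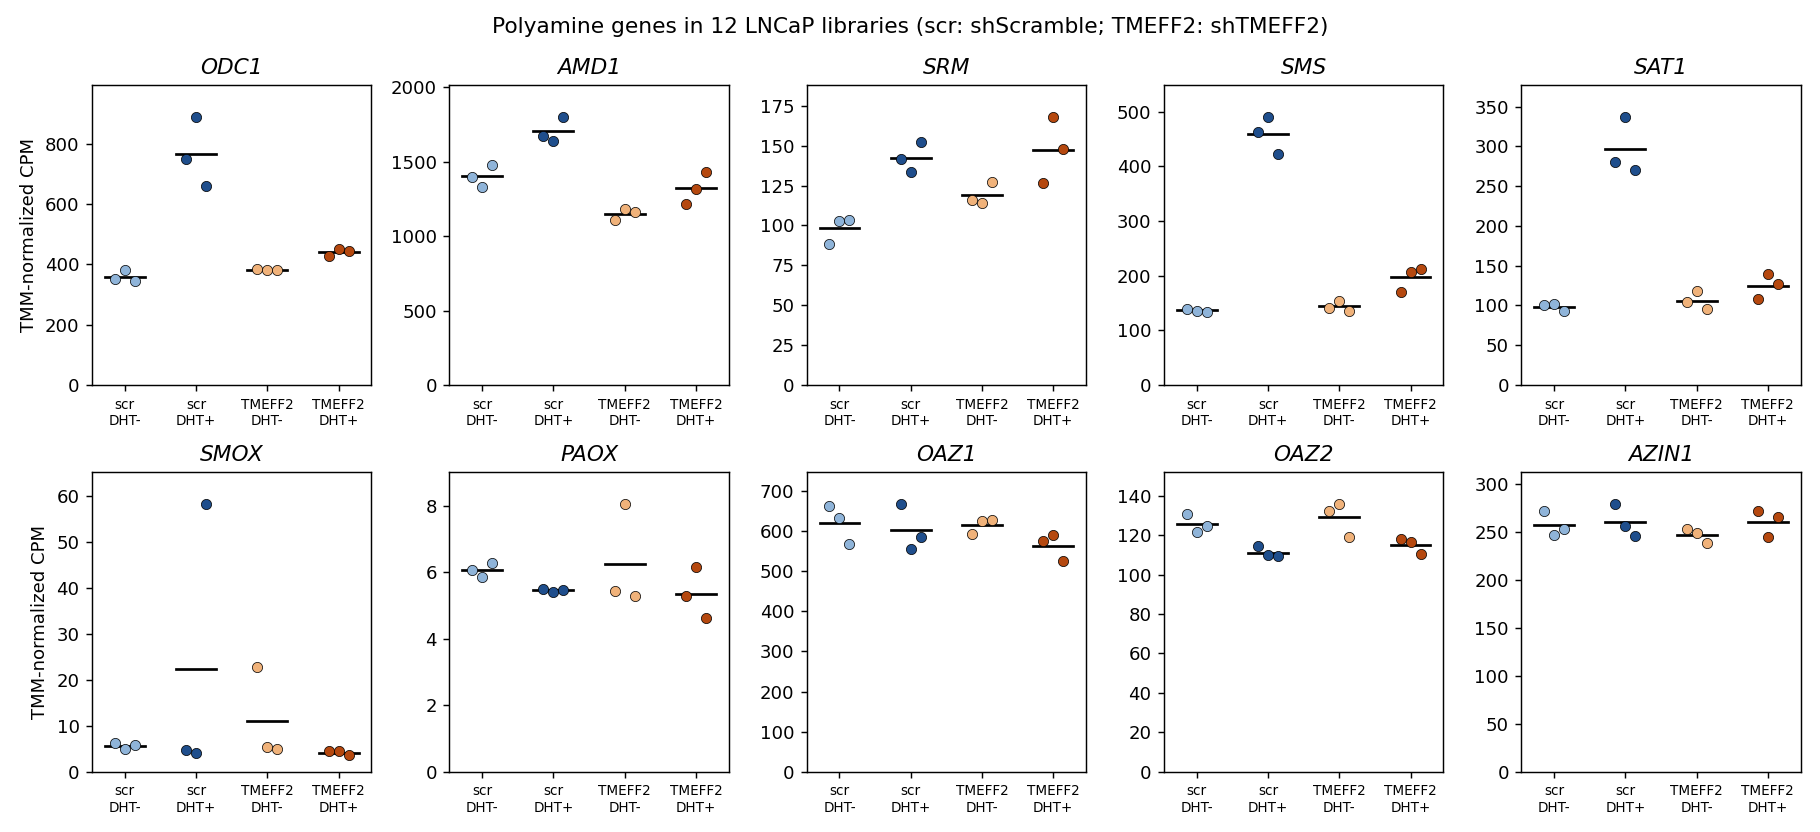
TMM-normalized CPM (vertical axis, from 0) of the 10 polyamine genes in the 12 libraries, by group; points are libraries and bars are group means of 3. ODC1, SMS and SAT1 stand highest in shScramble DHT+, and SMOX has 1 high library in each of shScramble DHT+ (58.4 CPM) and shTMEFF2 DHT- (22.8 CPM).

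The first comparison asked how DHT changed these genes in control cells. In shScramble cells 5 of 10 members rose with DHT (adjusted p at most 0.05) against 14.4% of all genes tested, and 3 of them rose at least 1.5-fold against 5.45%. No member fell, by edgeR at that limit, against 12.6% of all genes. At an unadjusted p under 0.05, 7 of 10 differed, against 38.7% of all genes. DESeq2 called 6 and limma-voom 5 members. Of all genes, 2217 rose and 1940 fell by edgeR, and over the alternative fits 1673 to 2550 rose and 1324 to 2698 fell. The median log2 fold change was 0.41 over the members and -0.01 over all genes tested. The members' median includes SMOX at 1.99, which was at -0.36 without the second column of 2 libraries, as described below. Without those columns the members' median is lower, so it is not set against the median in shTMEFF2.

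SMS, which makes spermine, was at 140, 136 and 134 CPM in shScramble DHT- and at 462, 490 and 423 CPM in shScramble DHT+. The groups were far apart, and the rise was 3.35-fold (log2 1.75, SE 0.088, edgeR adjusted p = 7.3e-08), which ranked 15 of 15419 by p. SAT1, the acetyltransferase of the breakdown arm, was at 101, 102 and 92.9 CPM without DHT and at 281, 337 and 271 CPM with it. It rose 3.01-fold (log2 1.59, SE 0.11, edgeR adjusted p = 7.5e-07), with every DHT+ library above every DHT- library. ODC1, the first enzyme of the pathway, was at 351, 382 and 344 CPM without DHT and at 751, 889 and 659 CPM with it. All 3 DHT+ libraries lay above the DHT- ones, and the rise was 2.14-fold (log2 1.09, SE 0.088, edgeR adjusted p = 2.3e-06).

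SRM, which makes spermidine, went from 88.5, 103 and 103 CPM to 142, 134 and 152 CPM, a 1.45-fold rise (log2 0.54, SE 0.10, edgeR adjusted p = 0.0017) below the 1.5-fold limit. AMD1, the decarboxylase of S-adenosylmethionine, went from 1400, 1330 and 1482 CPM to 1676, 1638 and 1801 CPM, a 1.21-fold rise (log2 0.28, SE 0.065, edgeR adjusted p = 0.0065). In both genes the groups did not overlap, so all 4 synthesis enzymes and SAT1 were higher with DHT.

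The ratio of SMS to SRM counts, a description without a test, went from 1.4 ± 0.15 in shScramble DHT- to 3.24 ± 0.44 in shScramble DHT+ (SD, n = 3). The ratio of ODC1 to its antizyme OAZ1 went from 0.58 ± 0.043 to 1.28 ± 0.27. Both ratios were higher in every DHT+ library than in any DHT- library.

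The antizyme and antizyme inhibitor genes did not pass. OAZ1 was at 661, 633 and 567 CPM without DHT and 668, 556 and 585 CPM with it (log2 -0.04, 95% interval -0.21 to 0.13). OAZ2 was at 131, 122 and 125 CPM and then at 114, 110 and 109 CPM, without overlap, and its log2 difference of -0.18 (SE 0.063) had an edgeR adjusted p of 0.054. AZIN1 was at 273, 247 and 253 CPM and then 280, 257 and 246 CPM (log2 0.02, interval -0.12 to 0.16), and PAOX at 5.86 to 6.27 CPM and then 5.42 to 5.50 CPM (log2 -0.15, interval -0.53 to 0.23).

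In shTMEFF2 cells 1 of 10 members rose with DHT against 7.84% of all genes tested, and none fell against 5.21%. By edgeR 5 of 10 had an unadjusted p under 0.05 against 27.2% of all genes. DESeq2 called 3 members, all higher, and of all genes 1581 higher, against 1209 by edgeR. The count by limma-voom was 1 member. The median log2 fold change was 0.14 over the members and -0.02 over all genes tested. The member was SMS, at 141, 155 and 136 CPM without DHT and 170, 207 and 213 CPM with it, without overlap (log2 0.45, SE 0.086, edgeR adjusted p = 0.0054).

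ODC1 in shTMEFF2 was at 385, 381 and 383 CPM without DHT and 427, 452 and 444 CPM with it, and the groups did not overlap, yet the difference did not pass the adjusted limit (log2 0.20, SE 0.087, edgeR adjusted p = 0.15; it passed in 2 of 22 alternative fits). SAT1 was at 104, 118 and 95.3 CPM and then 108, 140 and 127 CPM, with overlapping groups (log2 0.24, SE 0.11, adjusted p = 0.19). AMD1 was at 1106, 1181 and 1164 CPM and then 1217, 1320 and 1431 CPM (log2 0.20, SE 0.065, edgeR adjusted p = 0.060), and SRM at 116, 114 and 127 CPM and then 126, 168 and 148 CPM (log2 0.31, SE 0.10, adjusted p = 0.063). AMD1 passed the limit in 4 and SRM in 5 of 22 alternative fits. OAZ1, OAZ2, AZIN1 and PAOX differed by -0.23 to 0.08 on the log2 scale, and none of the 4 passed. The ratio of SMS to SRM was 1.21 ± 0.15 without DHT and 1.34 ± 0.1 with it.

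**Figure D2:**
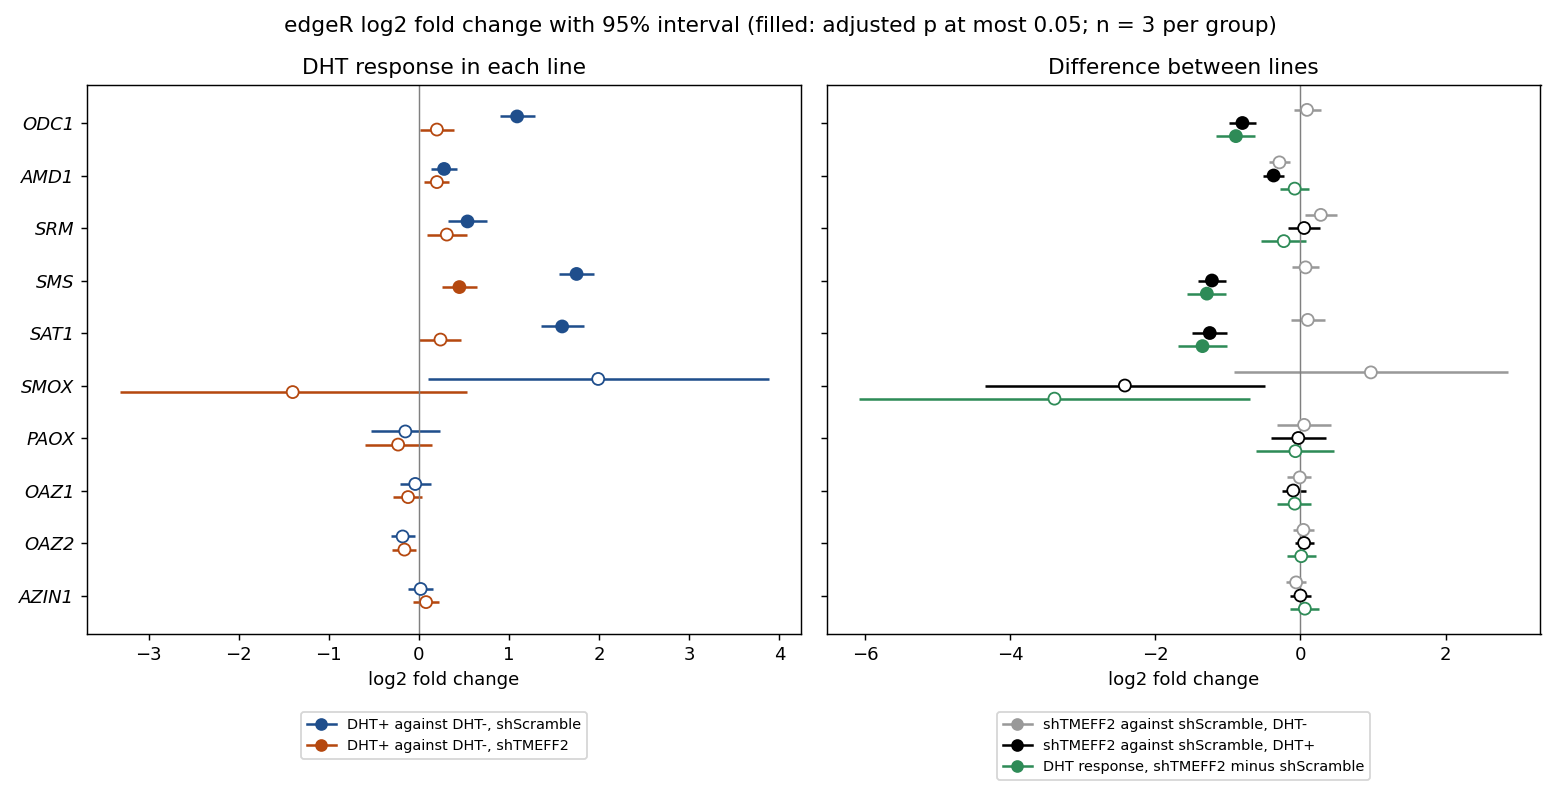
Log2 fold change (horizontal axis) with its 95% interval for the 10 members, from edgeR; left, DHT+ against DHT- in each line, and right, shTMEFF2 against shScramble without and with DHT, and how far the DHT responses of the lines differ; filled points passed an adjusted p of 0.05. The DHT responses of ODC1, SMS and SAT1 are 1.09, 1.75 and 1.59 in shScramble and 0.2, 0.45 and 0.24 in shTMEFF2, and the wide intervals of SMOX rest on 2 columns of the table.

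The difference between the DHT responses was tested with an interaction term. For 3 of 10 members the response was smaller in shTMEFF2, against 3.29% of all genes tested, and for none was it larger, against 1.65%. SMS differed by -1.29 on the log2 scale (SE 0.12, 95% interval -1.56 to -1.03, edgeR adjusted p = 0.00013), ranking 16 of 15419 by p. SAT1 differed by -1.35 (SE 0.16, interval -1.69 to -1.01, adjusted p = 0.00051) and ranked 35. ODC1 differed by -0.89 (SE 0.12, interval -1.16 to -0.63, adjusted p = 0.0014) and ranked 87.

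The fold rise with DHT was 2.45 times smaller for SMS, 2.55 times smaller for SAT1 and 1.86 times smaller for ODC1 in shTMEFF2 than in shScramble. The 3 genes are an enzyme that makes spermine, one that starts its breakdown, and one that makes putrescine. For SRM the difference was -0.23 (interval -0.54 to 0.08) and for AMD1 -0.08 (interval -0.28 to 0.12), and neither passed. OAZ1, OAZ2, AZIN1 and PAOX had differences of -0.08 to 0.06 with intervals spanning 0.

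Between the lines without DHT, no member differed by edgeR, against 0.623% of all genes higher and 0.493% lower in shTMEFF2. At an unadjusted p under 0.05, 2 of 10 members differed, against 13.5% of all genes. DESeq2 called 1 member, and of all genes 289 higher and 250 lower, against 96 and 76 by edgeR. The count by limma-voom was 0 members. AMD1 was at 1106 to 1181 CPM in shTMEFF2 and 1330 to 1482 CPM in shScramble, without overlap (log2 -0.29, SE 0.065, edgeR adjusted p = 0.058). SRM was the other (log2 0.28, SE 0.10, adjusted p = 0.24). ODC1, SMS and SAT1 differed by 0.09, 0.07 and 0.10 on the log2 scale.

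With DHT, 4 of 10 members were lower in shTMEFF2, against 9.09% of all genes tested, and 3 of these at least 1.5-fold, against 3.74%. None was higher, against 6.93%. SAT1 was 2.37-fold lower (log2 -1.25, SE 0.11, edgeR adjusted p = 1.3e-05), SMS 2.33-fold lower (-1.22, SE 0.087, adjusted p = 2.6e-06) and ODC1 1.74-fold lower (-0.80, SE 0.087, adjusted p = 5.8e-05). AMD1 was 1.29-fold lower (-0.37, SE 0.065, edgeR adjusted p = 0.0021), and the groups overlapped in none of the 4. SRM did not differ beyond its spread (log2 0.05, interval -0.17 to 0.27). This comparison and the DHT comparisons share libraries, so their calls are not independent.

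SMOX, which oxidizes spermine, is low in these cells and its fitted changes rest on 2 values. Its level was 3.56 to 6.2 CPM in 10 of the 12 libraries, but 58.4 CPM in shScramble DHT+ replicate 3 and 22.8 CPM in shTMEFF2 DHT- replicate 1. Each library is listed in 2 columns, and in those libraries the second column held 1122 counts against 45 in the first, and 412 against 61. In the other 10 libraries the normalized ratio of the columns was 0.774 to 1.37, and over the 9 other members it was 0.729 to 1.47 in all 12 libraries. Among 123405 gene values with at least 100 counts in a column, 136 (0.11%) differed at least 8-fold between the columns of a library, in 81 genes.

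With all columns, the log2 change of SMOX with DHT in shScramble was 1.99 (SE 0.87, edgeR adjusted p = 0.11). Without the second column of those 2 libraries it was -0.36, and the difference between the DHT responses went from -3.39 (SE 1.2, adjusted p = 0.16) to 0.01. No SMOX comparison passed the limit in the fit of all columns.

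**Figure D3:**
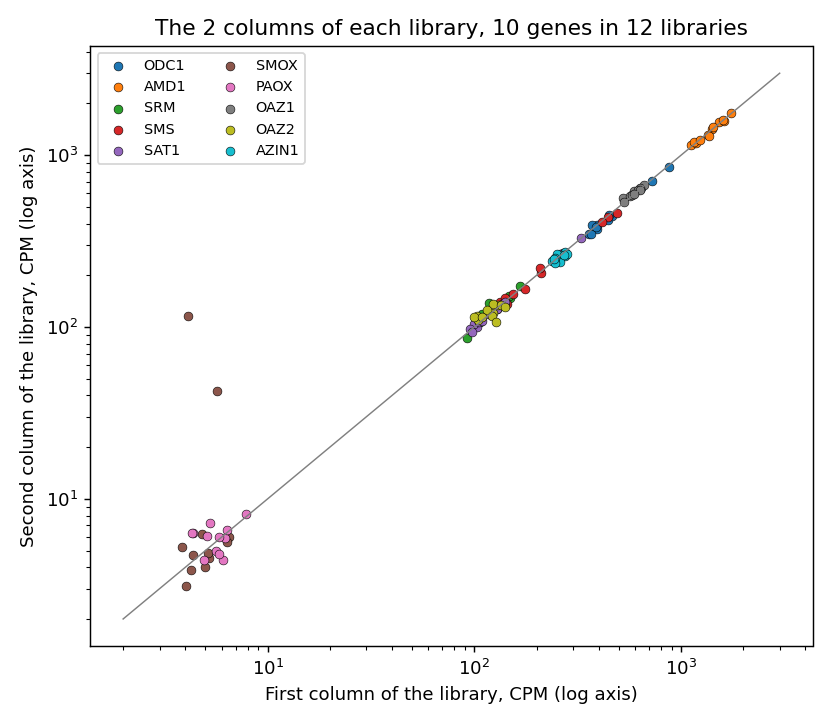
CPM of the 10 genes in the first column (horizontal) and the second column (vertical) of each of the 12 libraries, on log axes, with the line of equality. The points lie along the line except for 2 SMOX points, at 4.12 against 116 CPM and at 5.67 against 42.7 CPM.

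Over the 12 libraries the log2 levels of ODC1, SMS and SAT1 ran closely together, with Pearson's r of 0.98 for ODC1 with SMS, 0.98 for ODC1 with SAT1 and 0.99 for SMS with SAT1. The points share the 4 groups, and after each group's mean was removed r was 0.54, 0.65 and 0.88, so the libraries of a group that were high for SMS tended to be high for SAT1. By likeness over the 12 libraries among all genes tested, the closest to SMS were PAK1IP1 (r = 0.992), MTMR9 (0.991) and KDELR2 (0.991). The closest to SAT1 were MTMR9 (0.993), SMS itself (0.990) and SFT2D1 (0.987), and to ODC1 TXNDC16 (0.984), SAT1 (0.983) and HMGXB3 (0.981). AMD1 was closest to CD2AP (0.972), DDTL (0.960) and KLHL29 (0.959). These are descriptions of 12 libraries in 4 groups.

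**Figure D4:**
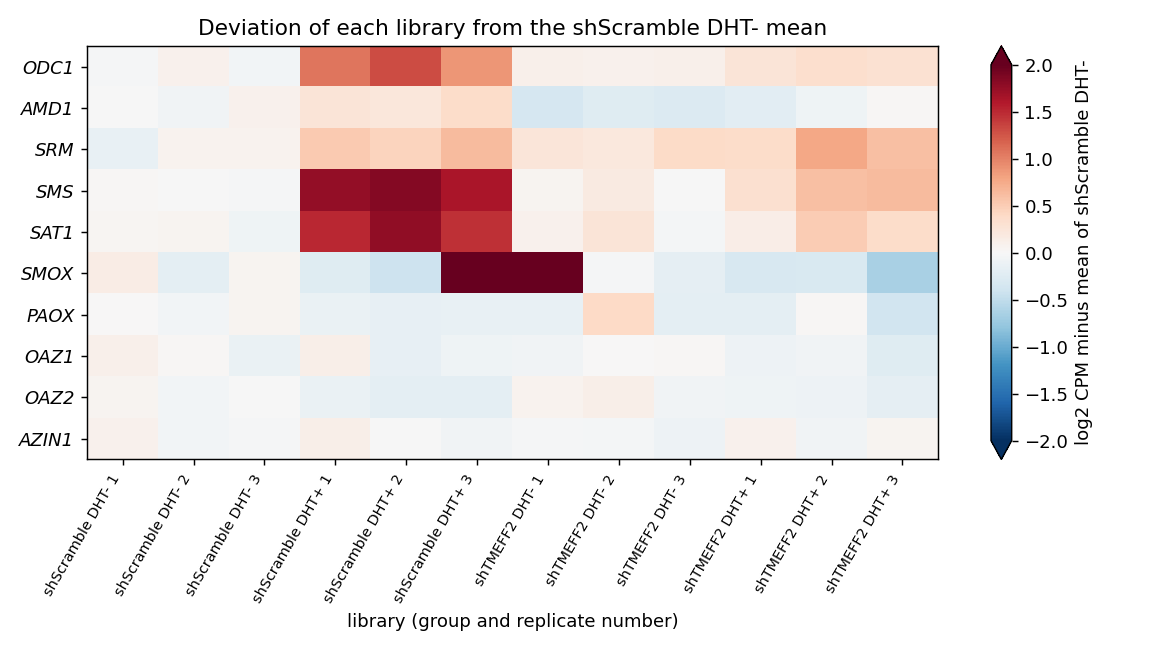
Log2 CPM of each library minus the mean of shScramble DHT- (colour, clipped at 2 in either direction) for the 10 genes (rows) in the 12 libraries (columns). SMS, SAT1 and ODC1 are high in the 3 shScramble DHT+ libraries, AMD1 is lowest in the shTMEFF2 DHT- libraries, and SMOX is off the scale in 2 libraries.

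Of 35 other genes of polyamine supply, transport and use, 32 passed the filter. With DHT 11 of these 32 rose and 3 fell in shScramble, against 14.4% and 12.6% of all genes tested, and 8 rose and 4 fell in shTMEFF2, against 7.84% and 5.21%. Their median log2 fold changes were 0.14 and 0.15, against -0.01 and -0.02 over all genes. Without DHT none differed between the lines by edgeR, while 5 of 32 had an unadjusted p under 0.05, close to the 13.5% of all genes. With DHT 1 of 32 was higher and 3 were lower in shTMEFF2, against 6.93% and 9.09% of all genes. For 1, APIP, the DHT response was smaller, against 3.29%. The counts between the lines and of the response difference were thus near or below the shares of all genes. The counts that rose with DHT were above those shares in both lines, as a description only.

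Genes of ornithine and arginine supply were among those that rose with DHT in both lines. ALDH18A1, which leads to ornithine and proline, rose by 0.40 in shScramble (SE 0.058, edgeR adjusted p = 0.00025) and 0.23 in shTMEFF2 (SE 0.058, adjusted p = 0.024). The ornithine carrier SLC25A15 rose by 0.43 and 0.39 (adjusted p = 0.0036 and 0.013), and the arginine transporter SLC7A1 by 0.40 and 0.30 (adjusted p = 0.0037 and 0.032). In all, 5 of the 7 tested genes of this list rose in shScramble and 4 of 7 in shTMEFF2, against 14.4% and 7.84% of all genes, and 0 fell, against 12.6% and 5.21%. The 3 calls named here held in all 22 alternative fits in shScramble, but in shTMEFF2 that of ALDH18A1 was lost in 6 of 22 (adjusted p up to 0.24) and those of SLC7A1 and SLC25A15 in 3 each.

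The methionine salvage genes return the sulphur by-product of spermidine and spermine synthesis to methionine. APIP was at 18.5, 18.9 and 19.0 CPM in shScramble DHT- and 29.8, 34.2 and 32.7 CPM in shScramble DHT+, a rise of 0.78 (SE 0.087, edgeR adjusted p = 3.4e-05). In shTMEFF2 it went from 19.3 to 20.8 CPM to 21.6, 24.8 and 25.1 CPM, and the response was smaller by 0.53 on the log2 scale (interaction -0.53, SE 0.12, adjusted p = 0.028), a call lost in 12 of 21 alternative fits. ENOPH1 rose by 0.42 in shScramble and 0.27 in shTMEFF2 (edgeR adjusted p = 0.00036 and 0.015), and ADI1 by 0.25 and 0.26 (adjusted p = 0.012 and 0.019). In shTMEFF2 the call of ENOPH1 was lost in 2 and that of ADI1 in 5 of 22 alternative fits.

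Among the transporters, SLC18B1, a vesicular polyamine carrier, was at 6.2, 6.06 and 7.78 CPM in shScramble DHT- and 2.27, 3.71 and 4.80 CPM in shScramble DHT+, a fall of 0.89 on the log2 scale (log2 -0.89, SE 0.22, edgeR adjusted p = 0.011). With DHT it was 2.66-fold higher in shTMEFF2 (log2 1.41, SE 0.22, adjusted p = 0.00092). Its change with DHT in shTMEFF2 was 0.17 (edgeR adjusted p = 0.65). The difference between the DHT responses of SLC18B1 did not pass (interaction 1.07, SE 0.31, adjusted p = 0.07). ATP13A2, which exports polyamines from lysosomes, fell in both lines (-0.25 and -0.30, edgeR adjusted p = 0.024 and 0.020), and SLC22A2 fell in shTMEFF2 (-0.64, SE 0.15, adjusted p = 0.017). EIF5A, whose protein carries the hypusine made from spermidine, rose 1.17-fold in shScramble (log2 0.23, SE 0.054, edgeR adjusted p = 0.0070), and SAT2 fell in shTMEFF2 (-0.36, SE 0.099, adjusted p = 0.032). Of 22 alternative fits, the ATP13A2 call was lost in 7 in shScramble (adjusted p up to 0.24) and 5 in shTMEFF2, the SLC22A2 call in 2 and the SAT2 call in 8 (adjusted p up to 0.15).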

How the data were processed

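RNA-seq of LNCaP cells was used for 12 libraries in 4 groups of 3. The authors checked reads with FASTQC, removed contaminants, trimmed with Trimmomatic (minimum 15 bp) and quantified transcripts with kallisto 0.42.3 on GRCh38, with bias correction. The deposited values are estimated counts at the gene level, summarized by the authors with tximport from length-scaled abundances, so a change of transcript use alone need not change a gene's value. Their DESeq2 results were not used.

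The 24 columns, 2 per library and all assigned, were summed per library and rounded. Totals were 19450866 to 22612046 counts. In R 4.3.3, edgeR 4.0.16 fitted all 12 libraries with TMM factors (0.955 to 1.04), filterByExpr (minimum count 10, total 15) and 1 mean per group. Quasi-likelihood p-values were adjusted by Benjamini-Hochberg over 15419 genes, with limits of 0.05 and 1.5-fold. Alternatives used DESeq2 1.42.0, limma 3.58.1 voom, other filters and scaling, single columns, a replicate block, and libraries left out in turn. The fit was tested on simulated counts. The study's methods give no pairing, so the replicate number entered only as a block in an alternative fit. Same-numbered libraries deviated together with r of 0 to 0.17 over all genes tested (2 of 12 pairs above 0.1). This r does not exclude shared deviations in single genes. With the block 2550 of all genes rose with DHT in shScramble, against 2217 without it. The members, lists and motifs were chosen with earlier results of these data known. All members were named; of the other pathway lists, up to 3 genes past the test were named by smallest p, with TMEFF2, KLK3 and the 3 most alike genes of 4 members. Positions are from GENCODE on GRCh38 and promoters from RefSeq on GRCh38.p14. The result of 1 marker list is not reported here.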

Additional observations from a re-analysis of the deposited data

Results flagged for a closer look

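The DHT response of 4 named genes differed between the lines by the interaction test of edgeR. The log2 response in shTMEFF2 minus that in shScramble was -1.35 for SAT1 (adjusted p = 0.00051), -1.29 for SMS (adjusted p = 0.00013), -0.89 for ODC1 (adjusted p = 0.0014) and -0.53 for APIP (adjusted p = 0.028). SMS, SAT1 and ODC1 passed in all 21 alternative fits of this difference, and APIP in 9 of 21, with an adjusted p of 0.0069 to 0.18. Without DHT, ODC1, SMS and SAT1 differed between the lines by 0.09, 0.07 and 0.10 on the log2 scale, and none passed.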

How the results depend on the processing

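The rise of ODC1, AMD1, SRM, SMS and SAT1 with DHT in shScramble, the rise of SMS in shTMEFF2 and the lower ODC1, AMD1, SMS and SAT1 in shTMEFF2 with DHT each passed in all 22 alternatives, and the smaller responses of ODC1, SMS and SAT1 in all 21. For the other counts the cause of a change was not tested. The number of members that fell with DHT in shScramble was 0 and became 1 (OAZ2) under DESeq2, a filter at 5 CPM, library size only, the replicate block and without the second column of 2 libraries, and 0 to 1 when a library was left out (1 without shTMEFF2 DHT- replicate 3). The number that rose in shTMEFF2 was 1 and became 3 under DESeq2 and the replicate block, and 2 with a filter at 5 CPM, the second column, or the 6 libraries alone, and 1 to 3 with a library left out (3 without shTMEFF2 DHT+ replicate 1, 2 without shScramble DHT- replicate 3 or shScramble DHT+ replicate 2). The number lower in shTMEFF2 without DHT was 0 and became 1 (AMD1) under DESeq2, no filter and the replicate block, and 0 to 1 with a library left out (1 without shTMEFF2 DHT+ replicate 1 or 3). The block changed no other call of a member.

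Signs that turned, none with a called value, were these. With the first column alone SMOX changed by -0.36 with DHT in shScramble and -0.19 between the lines without DHT, SRM, PAOX and AZIN1 differed by -0.01, 0.05 and -0.02 with DHT, and the PAOX response by 0.02. With the second column AZIN1 changed by -0.03 with DHT in shScramble, OAZ2 differed by 0 without DHT and -0.06 with DHT, and the OAZ2 response by -0.05. Library size only gave -0.05 for AZIN1 and 0.03 for PAOX, the filter at 5 CPM gave -0.01 for AZIN1, and leaving out the second column of 2 libraries, chosen after seeing the data, gave SMOX -0.36, -0.07 and 0.01. With a library left out, the DHT change in shScramble ranged from -0.33 to 2.48 for SMOX, -0.12 to 0.02 for OAZ1 and -0.04 to 0.06 for AZIN1. Without DHT the line difference ranged from -0.11 to 1.33 for SMOX, -0.18 to 0.16 for PAOX and -0.07 to 0.03 for OAZ1, and with DHT from -0.04 to 0.15 for SRM, -0.13 to 0.08 for PAOX and -0.04 to 0.07 for AZIN1. The response difference ranged from -0.18 to 0.15 for PAOX, -0.13 to 0.01 for OAZ1 and -0.04 to 0.05 for OAZ2. SMOX passed the limit in 1 of 21 alternatives for DHT in shScramble and in 3 of 21 for the lines with DHT. SMOX turned without shScramble DHT+ replicate 3 (DHT in shScramble) and without shTMEFF2 DHT- replicate 1 (lines without DHT).

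Over all genes, library size only moved the DHT split in shScramble from 2217 higher and 1940 lower to 1673 and 2698, the line split with DHT from 1068 and 1402 to 1616 and 1101, and the interaction from 254 larger and 507 smaller to 370 and 398. The line calls without DHT ranged from 22 to 289 higher and 23 to 250 lower, and the DHT calls in shTMEFF2 from 636 to 1581 higher and 241 to 1146 lower, the lowest without shTMEFF2 DHT+ replicate 3. The interaction calls ranged from 127 to 479 larger and 329 to 726 smaller. SMOX and PAOX, the members with the fewest counts, had as few as 80 and 104 in a library, which limits their precision.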
